A study of Mus musculus with 12 samples.

Results

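Glycan-building genes encode the core proteins that carry sugar chains at the cell surface and the enzymes that start, lengthen, sulfate and cap those chains. They were taken as the protein-coding genes of 4 deposited comparison tables whose symbols begin with a syndecan, glypican, hyaluronan synthase, exostosin, xylosyltransferase, chondroitin chain, sulfotransferase, endosulfatase, sialyl-, fucosyl-, galactosyl-, N-acetylglucosaminyl- or polypeptide GalNAc-transferase name. The glycosaminoglycan genes that the study itself listed and Gpc3 were left out. This gave 60 gene models of 9338 genes in the tables, with 59 symbols, since St6galnac2 has a second, short model inside the first one and reads on the pair cannot be assigned with certainty.

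RNA was sequenced from CD31+ lung cells of male C57Bl/6J mice in 4 groups of 3. WT and TET2 KO mice were each kept on standard chow or on high-fat diet (HFD). Every mouse carried TET2fl/fl and received 40 mg/kg tamoxifen daily for 3 days when it was between 6 and 8 weeks old. TET2 KO mice also carried Cdh5-CreERT2, a recombinase driven by an endothelial promoter, and WT mice did not carry it. From 1 week after tamoxifen the mice ate chow with 13% of its energy from fat or HFD with 60% for 20 weeks, and each library is 1 mouse. CD31 beads enrich for endothelial cells (ECs) without purifying them, because leukocytes and platelets carry CD31 too.

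The surface of an EC is covered by the glycocalyx, a layer of proteoglycans, glycoproteins and hyaluronan on the side of the blood. Syndecans and glypicans carry heparan sulfate, whose chains are started on xylose, polymerized by exostosins, and then sulfated at set positions that decide which proteins they bind. Mucin-type O-glycans start with GalNAc on serine or threonine, N-glycans branch through Mgat enzymes, and both are finished with galactose, fucose and sialic acid, the sugars that selectins and siglecs recognize. TET2 oxidizes 5-methylcytosine at CpG sites.

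The libraries held 36.7 to 56.8 M reads on genes, and WT HFD replicate 1 was the deepest. A table lists only genes with an unadjusted p under 0.05 in the authors' own test, so "listed" below already means selected for a difference, and unlisted genes were not analysed here. "Called" means an unadjusted p under 0.05 in edgeR's quasi-likelihood test on the same libraries, which is therefore not independent evidence. Tet2 was listed only for HFD against chow in WT, at 4.73, 5.18 and 5.15 FPKM on chow and 6.07, 6.32 and 6.71 FPKM on HFD, so its loss in the TET2 KO libraries could not be checked on these tables. The 11 endothelial markers with values in 3 groups, among them Cdh5, Pecam1 and Cldn5, were present in all 9 libraries of these groups. For the TET2 KO chow libraries only Ramp2 and Emcn of them were listed. Other cells were present as well: the 9 lung epithelial markers listed for HFD against chow in WT, Scgb1a1 among them, summed to 4411 to 5939 FPKM in WT chow and 2340 to 4724 FPKM in WT HFD. They moved in both directions, with 4 called higher and 2 called lower and a median log2 fold change of 0.90, and Ager and Hopx of alveolar type 1 cells rose by 1.34 (SE 0.29) and 1.18 (SE 0.26).

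Of 123 genes annotated in GENCODE M21 that match the names, 60 (48.8%) were listed in at least 1 table, against 31.2% of 22028 annotated protein-coding genes. For HFD against chow in WT 48 were listed (39.0%, against 24.9% of protein-coding genes), for TET2 KO against WT on HFD 31 (25.2% against 13.6%), for HFD against chow in TET2 KO 11 (8.94% against 5.61%) and for TET2 KO against WT on chow 5 (4.07% against 4.12%). Both endosulfatases and all 3 hyaluronan synthases were listed somewhere, and 3 of 12 galactosyltransferase genes. No test of these shares was made, and they count every annotated gene whatever its level in these cells. A difference in level between members and other genes was not taken into account. The highest mean level of a group was at least 10 FPKM (reads scaled to transcript length and library total) for 17 members, 1 to 10 FPKM for 24 and under 1 FPKM for 19. Of the 60 models 28 appeared in 1 table, 30 in 2, St6galnac2 in 3 and Galnt7 in all 4.

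The stretches of DNA around the start sites of Has1, B4galt4 and Galnt7 are shown because Has1 fell on HFD in WT with the lowest p, B4galt4 was the one listed galactosyltransferase that rose there, and Galnt7 was the one member listed in all 4 tables. They are RefSeq windows on GRCm38.p6, from 250 bases before to 50 bases after the start, 5′ to 3′ on the strand of the gene, with every CpG in capitals. The Has1 window is chr17:17855139-17855438 on the minus strand, the B4galt4 window chr16:38742009-38742308 on the plus strand and the Galnt7 window chr8:57653006-57653305 on the minus strand.
Has1: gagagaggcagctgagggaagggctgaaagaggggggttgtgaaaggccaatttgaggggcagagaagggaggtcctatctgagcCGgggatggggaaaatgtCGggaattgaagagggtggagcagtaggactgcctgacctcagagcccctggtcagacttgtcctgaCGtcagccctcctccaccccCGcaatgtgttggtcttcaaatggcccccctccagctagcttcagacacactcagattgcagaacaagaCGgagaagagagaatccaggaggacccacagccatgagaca
B4galt4: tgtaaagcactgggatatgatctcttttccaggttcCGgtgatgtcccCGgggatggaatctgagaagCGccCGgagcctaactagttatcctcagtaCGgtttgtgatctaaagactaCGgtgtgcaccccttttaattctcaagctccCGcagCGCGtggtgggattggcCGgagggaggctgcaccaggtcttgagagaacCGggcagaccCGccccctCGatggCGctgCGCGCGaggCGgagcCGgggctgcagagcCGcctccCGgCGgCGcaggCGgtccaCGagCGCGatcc
Galnt7: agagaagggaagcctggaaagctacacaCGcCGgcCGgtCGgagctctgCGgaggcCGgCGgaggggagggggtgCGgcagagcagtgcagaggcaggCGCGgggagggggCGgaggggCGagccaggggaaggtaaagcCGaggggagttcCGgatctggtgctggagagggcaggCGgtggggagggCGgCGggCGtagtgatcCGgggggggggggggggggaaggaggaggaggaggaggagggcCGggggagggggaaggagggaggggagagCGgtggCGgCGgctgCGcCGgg
They hold 5, 27 and 25 CpG. Windows were matched for 44 member genes (56 windows), with a median of 22 CpG and a range of 0 to 47, beside a median of 13 over 21255 windows of protein-coding genes. Neither interferon-type motif searched on both strands, TTCNNNGAA or GAAA repeated after 2 free bases, is written in these 3 windows. The first occurs in 3.57% of member windows, those of B3galt5 and B4galt1, and in 7.69% of protein-coding windows. The second also occurs in 3.57% of member windows, those of Csgalnact2 and Extl1, and in 3.35% of protein-coding windows. No methylation was measured here.

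The first question was what HFD did to these genes in WT cells. On HFD 33 of the 48 listed members were higher and 15 lower (47.3% of all listed genes were higher), with a median log2 fold change of 0.56 beside -0.32 over all 7330 listed genes. By edgeR 28 rose and 12 fell and 8 were not called. The 40 calls are 83.3% of the members beside a background of 91.6% of all listed genes, so the number called is not a result about the members. Calls upward made up 42.4% of all listed genes and calls downward 49.2%. At an adjusted p under 0.05 (edgeR, Benjamini-Hochberg) 9 members were called, beside 18.7% of all listed genes: Has1, Extl3, Galnt6, St6galnac2, Mgat4a, B4galt4, Csgalnact2, Chst7 and Chst14. The 6 libraries did not overlap for 37 members (77.1%), beside 86.5% of listed genes.

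**Figure D1:**
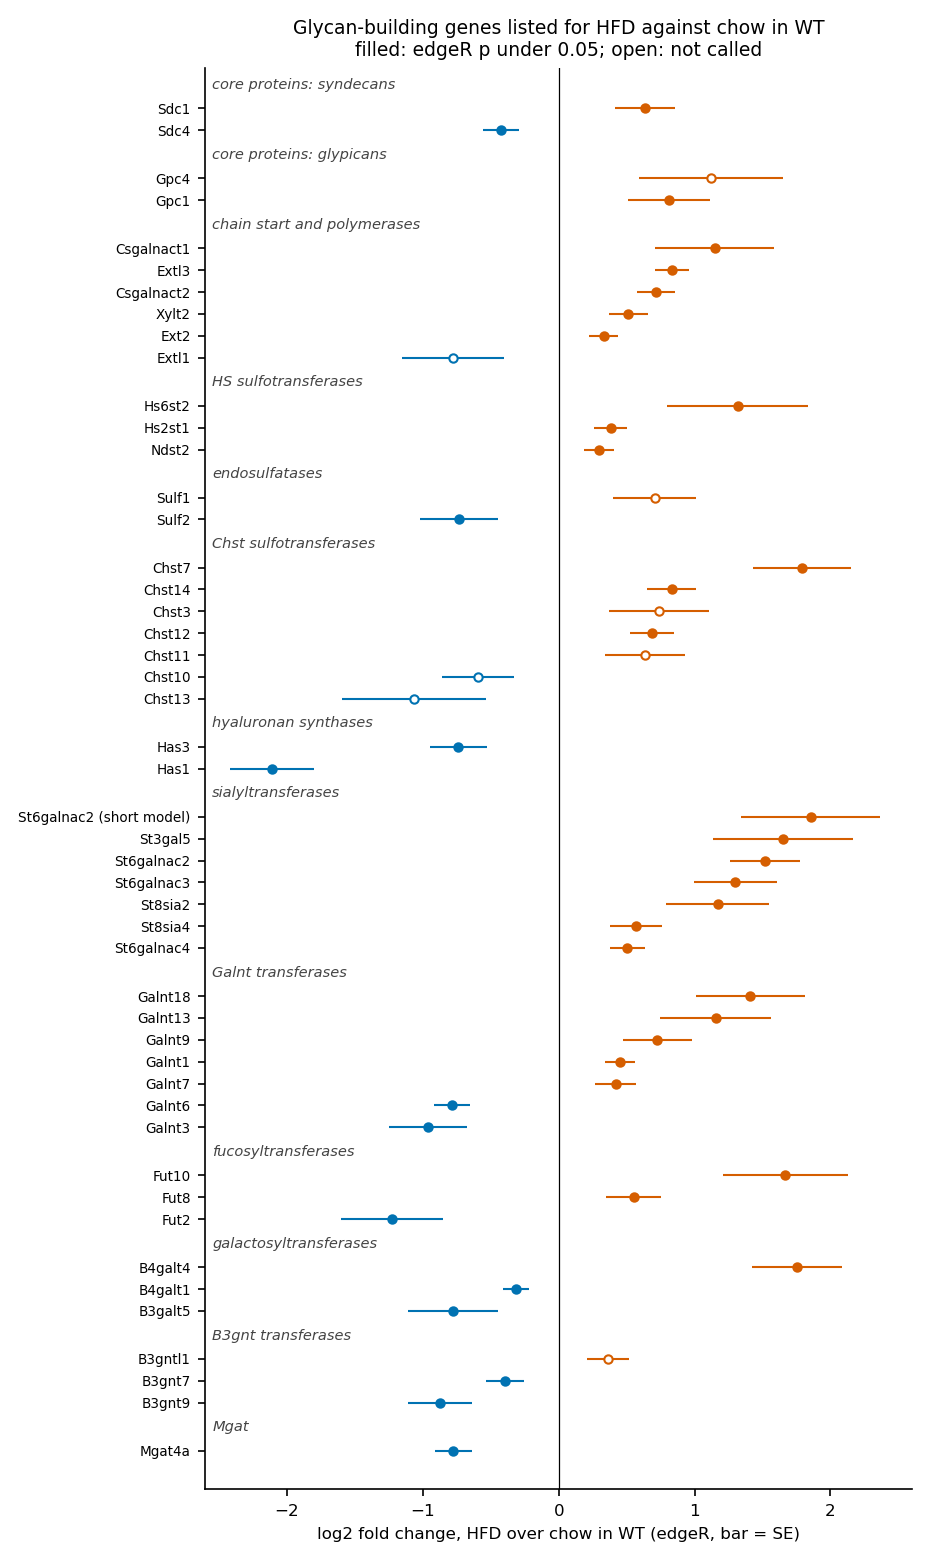
The log2 fold change of HFD over chow in WT is plotted on the horizontal axis for the 48 listed members, grouped by role on the vertical axis, with bars for the SE and open points for the 8 genes not called by edgeR. All 7 sialyltransferase points lie to the right of 0 and both hyaluronan synthases to the left, where Has1 is farthest out at -2.11.

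Endothelial markers rose, in the direction of 33 of the 48 listed members and against the 15 that were lower. Of 15 markers 14 were listed for HFD against chow in WT, all higher and all called, with log2 fold changes of 0.86 to 1.75 and a median of 1.36. Their summed level was 326, 285 and 764 FPKM in WT chow and 1494, 1199 and 864 FPKM in WT HFD, so WT chow replicate 3 stood close to the HFD libraries. Fewer cells of a type and less RNA per cell cannot be told apart in such samples. Of the 33 higher members 26 rose less than the median of the 14 listed endothelial markers and 20 less than the least changed of these, while 7 lay above the median. Flt1 was not listed, and the listed markers, like the members, were selected for a difference. WT chow replicate 3 was the highest chow library for 21 of the 33 (63.6%), beside 57.1% of all listed genes that were higher on HFD. NK cell markers were also higher (7 of 8 listed and called, 28.9 to 48.7 FPKM on chow and 92.4 to 149 FPKM on HFD), as were 3 listed T cell markers. Of 7 listed monocyte and macrophage markers, all called, 4 were higher, Cx3cr1 most (1.90, SE 0.18). The 3 lower ones were Marco (-1.25, SE 0.28), Mrc1 and Siglecf. Retnlg, the one listed neutrophil marker, fell by 1.47 (SE 0.50). Of 5 fibroblast and smooth muscle markers 3 were higher and 2 lower. The part of these cells in the members' results was not tested. Without WT chow replicate 3, 37 members were called, and leaving out any 1 library gave 29 to 38.

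**Figure D2:**
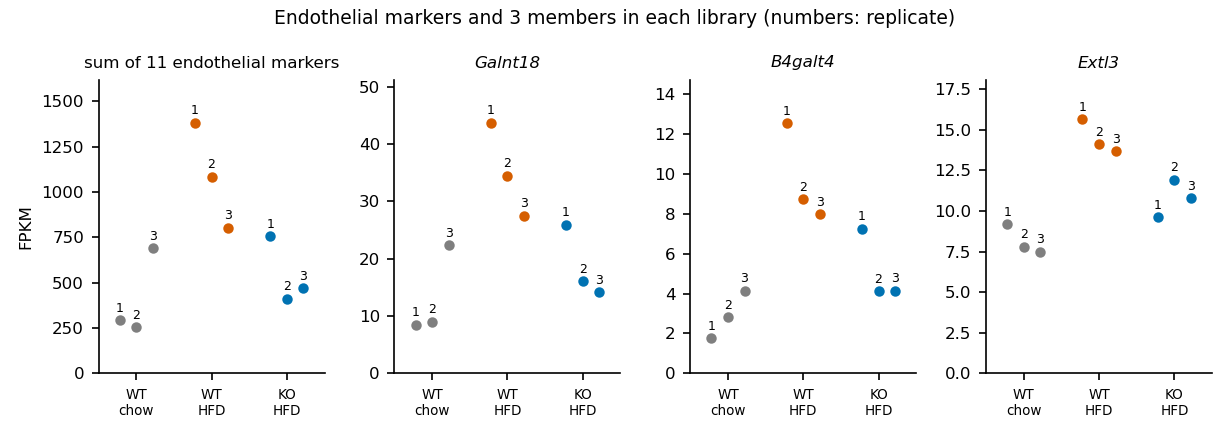
The summed level of 11 endothelial markers and the levels of Galnt18, B4galt4 and Extl3 are plotted in FPKM for each library of WT chow, WT HFD and TET2 KO HFD, with the replicate number above each point. WT chow replicate 3 and TET2 KO HFD replicate 1 are the highest of their groups for the markers, Galnt18 and B4galt4, and are not for Extl3, whose chow values are 7.50 to 9.20 FPKM.

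The enzymes that start and polymerize the chains mostly rose. Extl3, which transfers the first GlcNAc that commits a chain to heparan sulfate, had 9.20, 7.79 and 7.50 FPKM in WT chow and 15.6, 14.1 and 13.7 FPKM in WT HFD. Every HFD library lay above every chow library, and the fitted log2 fold change was 0.83 (SE 0.12, n = 3 per group, edgeR adjusted p = 0.0357). Csgalnact2, which starts chondroitin sulfate chains, went from 9.87, 10.1 and 10.9 FPKM to 14.9, 15.8 and 19.9 FPKM (log2 fold change 0.72, SE 0.14). Xylt2, the xylosyltransferase that attaches the first sugar to the core protein, rose by 0.51 (SE 0.15), and Ext2, a subunit of the heparan sulfate polymerase, rose by 0.33 (SE 0.11), both without overlap. Ext2 was not called without WT HFD replicate 3 or WT chow replicate 1 (0.28 to 0.29). Csgalnact1, the sister of Csgalnact2, rose by 1.15 (SE 0.44), but its WT chow replicate 3, at 3.42 FPKM, lay above WT HFD replicate 3, at 3.19 FPKM. Extl1 was the one listed member of this role below 0, at -0.78 (SE 0.38), and was not called.

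Core proteins did not move one way. Sdc1, a syndecan of epithelial cells and plasma cells, rose from 7.73, 6.41 and 10.2 FPKM to 12.3, 10.04 and 15.3 FPKM, with overlapping groups (log2 fold change 0.63, SE 0.22). Sdc4, the broadly expressed syndecan of focal adhesions, fell from 35.8, 29.3 and 28.5 FPKM to 21.2, 24.5 and 23.8 FPKM, with no overlap (-0.42, SE 0.13). Gpc1, a glypican of the endothelial surface, rose by 0.81 (SE 0.30), from 0.908 to 1.57 FPKM on chow to 1.46 to 2.85 FPKM on HFD. Gpc4 was higher by 1.12 (SE 0.53) and was not called. Its chow values of 0.146, 0.298 and 0.716 FPKM were spread by replicate 3, without which the log2 fold change was 1.93 and was called. Sdc1 lost its call without WT HFD replicate 1 or 3 or WT chow replicate 1 or 2 (0.46 to 0.65) and Gpc1 without WT HFD replicate 1 or 3 or WT chow replicate 2 or 3 (0.56 to 0.81), while Sdc4 was called in all 6 fits with 1 library missing.

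Sulfation genes were mostly higher. Of 3 listed heparan sulfate sulfotransferases all rose: Hs2st1, the 2-O-sulfotransferase, by 0.38 (SE 0.12), Ndst2, an N-deacetylase and N-sulfotransferase, by 0.30 (SE 0.11), and the 6-O-sulfotransferase Hs6st2 by 1.32 (SE 0.52), the last from only 16 to 109 reads a library. Of 7 Chst genes 3 rose, none fell and 4 were not called. Chst7, which sulfates GalNAc of chondroitin at the 6 position, had 0.817, 0.691 and 1.44 FPKM in WT chow and 3.86, 4.07 and 2.23 FPKM in WT HFD. All HFD libraries were higher, and the log2 fold change was 1.79 (SE 0.36, edgeR adjusted p = 0.0422). Chst14, the dermatan 4-O-sulfotransferase, rose from 2.87, 2.71 and 3.04 FPKM to 6.02, 5.12 and 4.15 FPKM (0.83, SE 0.18), and Chst12, a chondroitin 4-O-sulfotransferase, rose by 0.69 (SE 0.16). Of the endosulfatases that take 6-O-sulfate off heparan sulfate outside the cell, Sulf2 fell by 0.73 on the log2 scale (SE 0.29), from 24.8, 38.7 and 25.7 FPKM to 18.3, 11.6 and 23.5 FPKM, and Sulf1 was higher by 0.71 (SE 0.31) and was not called. Without WT HFD replicate 1 or 2 or WT chow replicate 2 the value of Sulf2 was -0.75 to -0.50 and was not called.

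The hyaluronan synthases listed for this comparison both fell. Has1 had 0.762, 0.946 and 0.897 FPKM in WT chow and 0.210, 0.123 and 0.265 FPKM in WT HFD, which left a wide gap between the groups. Its log2 fold change of -2.11 (SE 0.31, edgeR adjusted p = 0.0357) corresponds to a 4.31-fold lower level and rests on 151 to 158 reads a library on chow and 22 to 54 on HFD. Has3 fell by 0.74 (SE 0.21), from 0.363 to 0.415 FPKM on chow to 0.208 to 0.254 FPKM on HFD. Of 9 mesothelial markers only Krt19 and Muc16 were listed for this comparison, both lower. Krt19 was called (-0.97, SE 0.24) and Muc16 was not (-0.97, SE 0.47). For HFD against chow in TET2 KO, Krt19 moved against the 7 other listed mesothelial markers. The summed level of the 2 was 78.8 to 132 FPKM in WT chow and 38.9 to 61.0 FPKM in WT HFD. It was mostly Krt19, which averaged 7841 normalized counts in WT chow beside 97.3 for Muc16. Their part in the result was not tested.

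Sialyltransferases were the one role with more than 3 listed genes in which every gene rose. Groups were apart for all 7 models, as they were for all 7 Galnt genes and for 86.5% of all listed genes. The 7 models, which include the short model of St6galnac2, had a median log2 fold change of 1.30. St6galnac2, which adds sialic acid to the GalNAc of O-glycans, had 0.914, 1.12 and 1.74 FPKM in WT chow and 3.98, 3.65 and 3.12 FPKM in WT HFD (log2 fold change 1.52, SE 0.26, edgeR adjusted p = 0.0368). Its short model moved with it, by 1.85 (SE 0.51), on 5 to 103 reads a library. St6galnac3 rose from 0.675, 0.578 and 1.09 FPKM to 2.48, 1.86 and 1.40 FPKM (1.30, SE 0.31). St3gal5, the synthase of the ganglioside GM3, was carried by 1 library: it had 4.20, 3.60 and 4.75 FPKM in WT chow and 6.15, 8.06 and 25.04 FPKM in WT HFD, where replicate 3 stood apart. Its log2 fold change was 1.65 (SE 0.52) and 0.77 without that library, a value still called. The polysialyltransferases St8sia4 and St8sia2 rose by 0.57 (SE 0.19) and 1.17 (SE 0.38), and St6galnac4 rose by 0.51 (SE 0.13).

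Polypeptide GalNAc transferases, which start mucin-type O-glycans, split into 5 that rose and 2 that fell, all 7 without overlap. Galnt18 had 8.504, 9.03 and 22.3 FPKM in WT chow and 43.7, 34.5 and 27.5 FPKM in WT HFD (log2 fold change 1.41, SE 0.40). Galnt1, which on chow was the most abundant of the 5 that rose, went from 22.1 to 24.8 FPKM to 30.4 to 35.2 FPKM (0.45, SE 0.11). Galnt6 fell from 40.0, 42.7 and 31.9 FPKM to 22.0, 22.3 and 22.0 FPKM (-0.78, SE 0.13, edgeR adjusted p = 0.0368), and its HFD libraries were almost equal. Galnt3 fell by 0.96 (SE 0.29), from 6.01, 10.02 and 6.61 FPKM to 3.69, 2.67 and 5.21 FPKM. Galnt9, Galnt13 and Galnt7 rose by 0.73 (SE 0.25), 1.15 (SE 0.41) and 0.42 (SE 0.15), the last called in 2 of 6 fits with 1 library missing.

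The enzymes that branch and finish glycans also split. B4galt4, a beta-1,4-galactosyltransferase, had 1.75, 2.82 and 4.15 FPKM in WT chow and 12.5, 8.74 and 7.97 FPKM in WT HFD, a 3.37-fold higher level (log2 fold change 1.75, SE 0.33, edgeR adjusted p = 0.0398). B4galt1, the abundant member of that family, fell only from 46.3, 48.6 and 46.9 FPKM to 37.0, 37.8 and 39.0 FPKM (-0.31, SE 0.10). Mgat4a, which adds the beta-1,4 branch on N-glycans, fell from 9.06, 10.2 and 8.39 FPKM to 4.65, 6.13 and 5.31 FPKM (-0.77, SE 0.14). The fucosyltransferases Fut10 and Fut8 rose by 1.67 (SE 0.46) and 0.55 (SE 0.20), and Fut2, which makes the H antigen on mucosal surfaces, fell by 1.23 (SE 0.38) and by 0.69 without WT chow replicate 3, still called. Of the B3gnt genes, B3gnt9 and B3gnt7 fell by 0.87 (SE 0.24) and 0.39 (SE 0.14), and B3gntl1 was not called.

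**Figure D3:**
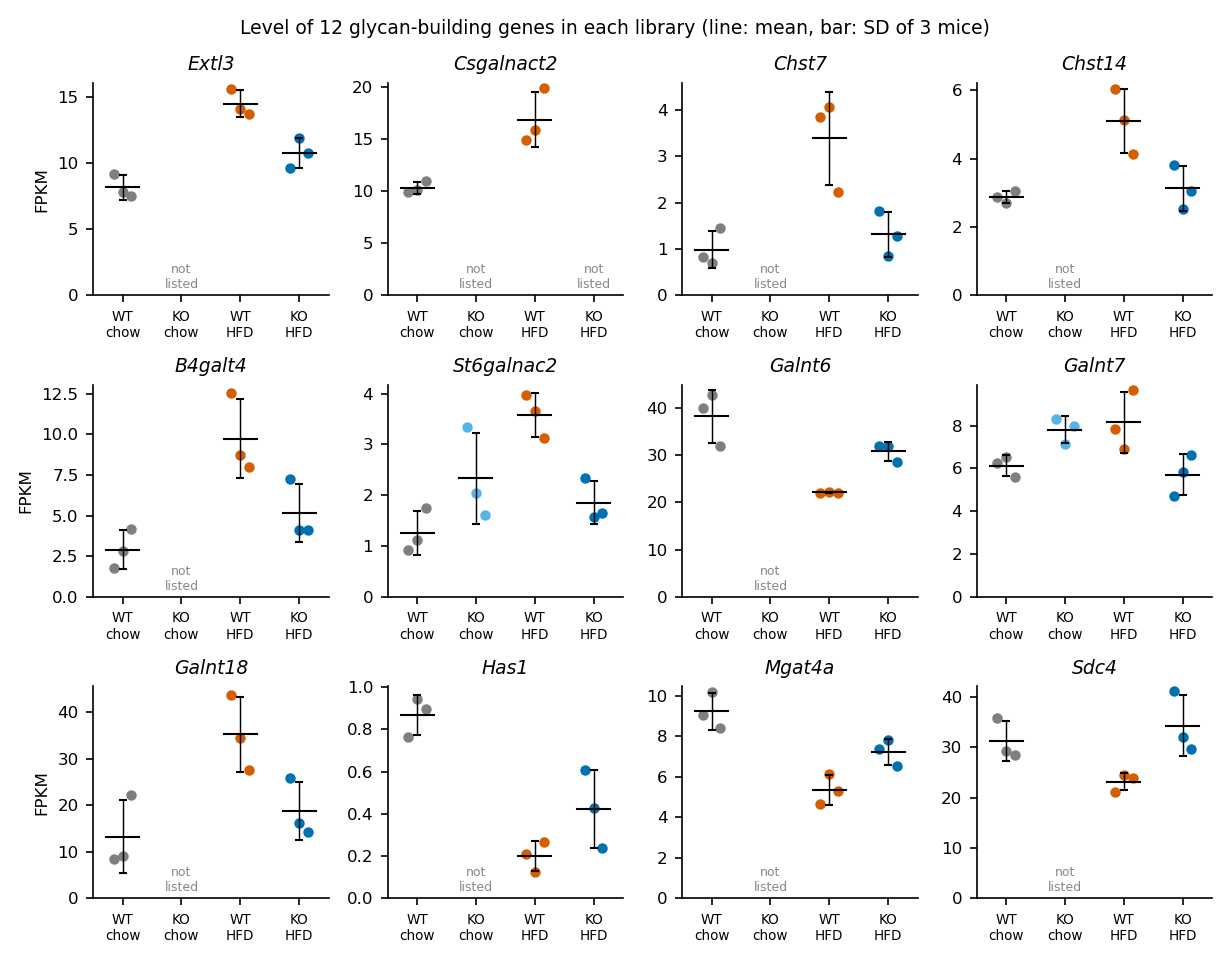
Each point is 1 library, the vertical axis is the level in FPKM from 0, the horizontal axis the group, and lines and bars give the mean and SD of 3 mice, with groups in which a gene was not listed marked so. For Extl3, Chst7, Chst14, B4galt4 and Galnt18 the WT HFD points are the highest, for Galnt6, Mgat4a and Sdc4 they are the lowest, and for Has1 they lie below all WT chow points and overlap those of TET2 KO HFD.

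The second question was whether TET2 KO cells on HFD differed from WT cells on HFD. Of 31 listed members 21 were lower and 10 higher in TET2 KO (52.2% of all listed genes were higher), with a median of -0.44 beside 0.33 over all 3939 listed genes. By edgeR 18 fell, 6 rose and 7 were not called, so that 77.4% were called beside 82.3% of all listed genes, of which 39.1% fell and 43.1% rose. None had an adjusted p under 0.05 (edgeR, lowest 0.237), and DESeq2 called 28 at an unadjusted p where edgeR called 24. The listing itself came from DESeq2, so its higher count is not separate support. Groups were apart for 21 (67.7%), beside 74.7% of listed genes. Leaving out WT HFD replicate 1 lowered the calls to 10 and leaving out TET2 KO HFD replicate 2 lowered them to 13.

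Chain start and polymerase genes were all on one side: 4 of the 5 listed fell and Xylt2, at -0.38 (SE 0.16), was not called. Extl3 had 9.61, 11.9 and 10.8 FPKM in TET2 KO HFD against 15.6, 14.1 and 13.7 FPKM in WT HFD (log2 fold change -0.42, SE 0.14). Ext1 and Ext2, the subunits of the heparan sulfate polymerase, fell by 0.44 (SE 0.19) and 0.36 (SE 0.14), and neither overlapped, but each lost its call in 5 of the 6 fits with 1 library missing (-0.51 to -0.31 and -0.41 to -0.30). Extl3 lost it without WT HFD replicate 1 or TET2 KO HFD replicate 1 (-0.37 to -0.35). Csgalnact1 fell by 0.80 (SE 0.33) with overlapping groups. Of the sulfation genes Chst7, at 1.82, 0.853 and 1.29 FPKM in TET2 KO HFD against 3.86, 4.07 and 2.23 FPKM, changed by -1.35 (SE 0.35), a 2.56-fold lower level. Chst14 and Chst12 fell by 0.70 (SE 0.22) and 0.40 (SE 0.17), Hs2st1 by 0.35 (SE 0.13) and Hs6st2 by 1.36 (SE 0.53). Hs6st1, the more abundant of the listed 6-O-sulfotransferases, went the other way, at 26.8, 27.2 and 26.8 FPKM against 15.5, 20.6 and 21.7 FPKM (0.49, SE 0.16). Chst14 and Hs6st1 lost their calls without WT HFD replicate 1 or TET2 KO HFD replicate 2, at -0.56 and at 0.35 to 0.48.

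Among core proteins Sdc4 rose, to 41.1, 32.0 and 29.7 FPKM against 21.2, 24.5 and 23.8 FPKM in WT HFD (0.57, SE 0.17, called in 6 of 6 fits with 1 library missing). Sdc3, a syndecan that leukocytes and neurons express, fell by 1.01 on the log2 scale (SE 0.40), but WT HFD replicate 3 alone had 64.1 FPKM beside 30.7 and 21.3 FPKM in its group, and TET2 KO HFD held 14.6, 24.7 and 18.3 FPKM. Without that library the value was -0.43 and was not called. Has1 rose by 1.09 (SE 0.44), with values of 0.607, 0.428 and 0.238 FPKM that overlapped the 0.123 to 0.265 FPKM of WT HFD, and was called in 2 of 6 fits that left out 1 library. Has2, the main hyaluronan synthase of many mesenchymal cells, had 0 reads in all 3 TET2 KO HFD libraries and 7, 1 and 6 reads in WT HFD. Against a floor of 3 counts over the group this is at least 4.19-fold lower, and the reads are few.

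**Figure D4:**
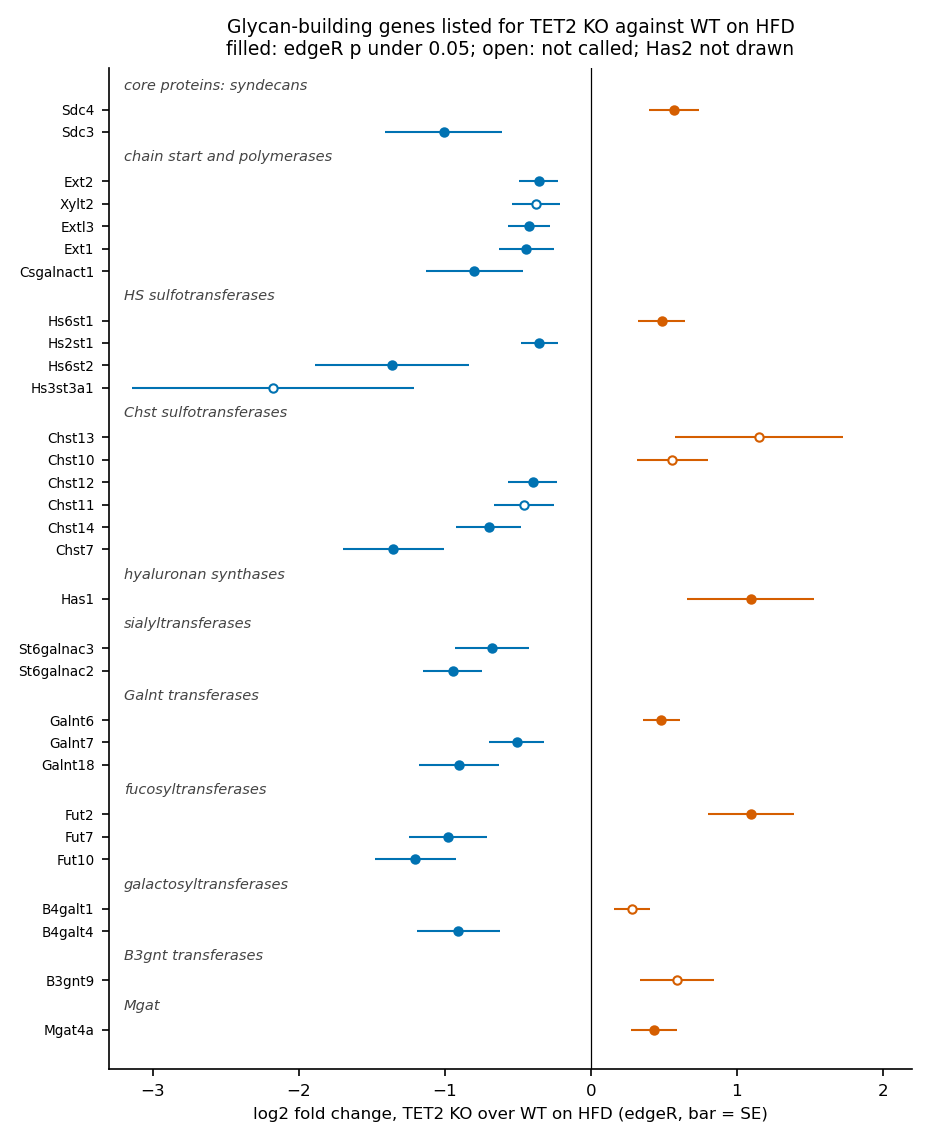
The log2 fold change of TET2 KO over WT on HFD is plotted on the horizontal axis for 30 of the 31 listed members by role, with SE bars and open points for genes not called, and Has2, which had 0 reads in TET2 KO HFD, is left out. The chain start and polymerase genes and both sialyltransferases lie to the left of 0, and Fut2, Has1, Sdc4, Hs6st1, Galnt6 and Mgat4a are the called genes on the right.

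Of the enzymes of capping and branching, St6galnac2 had 2.34, 1.57 and 1.65 FPKM in TET2 KO HFD against 3.98, 3.65 and 3.12 FPKM in WT HFD (-0.95, SE 0.20), and St6galnac3 fell by 0.68 (SE 0.25). Galnt18, at 25.9, 16.1 and 14.2 FPKM against 43.7, 34.5 and 27.5 FPKM, fell by 0.90 (SE 0.28), and Galnt7 fell by 0.51 (SE 0.19). B4galt4 had 7.25, 4.12 and 4.14 FPKM against 12.5, 8.74 and 7.97 FPKM (-0.91, SE 0.28). Fut10 fell by 1.20 (SE 0.28), and Fut7, which makes the sialyl Lewis x that selectins bind and is a leukocyte enzyme, fell by 0.98 (SE 0.27), from 1.82, 1.19 and 1.94 FPKM to 0.689, 0.972 and 0.847 FPKM. In the other direction Fut2 rose by 1.096 (SE 0.29), Galnt6 by 0.48 (SE 0.13) and Mgat4a by 0.43 (SE 0.16), and the groups were apart for all 3. Galnt6 had 28.5 to 31.9 FPKM in TET2 KO HFD against 22.0 to 22.3 FPKM in WT HFD. St6galnac3, Galnt7 and Mgat4a each lost their call in 4 of the 6 fits with 1 library missing, with values of -0.69 to -0.45, -0.54 to -0.37 and 0.34 to 0.43, WT HFD replicate 1 among the missing libraries for each, and B4galt4 lost it without that library alone, at -0.69.

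Endothelial markers fell as well, in the direction of 21 of the 31 listed members and against the 10 that were higher. Of 15 markers 12 were listed, all lower in TET2 KO HFD and 10 called, with a median of -0.97 and a range of -0.58 to -1.38, and 7 members lay below that median. The sum over the 11 markers with values in 3 groups was 755, 411 and 469 FPKM in TET2 KO HFD against 1381, 1085 and 803 FPKM in WT HFD. TET2 KO HFD replicate 1, with the highest sum of its group, was also its highest library for the lower members Galnt18, B4galt4, Chst7, Chst14 and St6galnac2. It was the lowest library of its group for Extl3, Ext1, Chst12, Galnt7, Fut7 and Sdc3, which were lower too. For Sdc4, Fut2 and Has1, which were higher in TET2 KO, it was again the highest. Members thus did not follow the marker sum across these libraries in one way. The only listed epithelial markers, Ager and Hopx, fell too, by 1.06 (SE 0.30) and 0.73 (SE 0.23), with a summed level of 28.8 to 48.0 FPKM in TET2 KO HFD against 70.3 to 85.3 FPKM in WT HFD. Ccr2, the one listed monocyte and macrophage marker, fell by 1.05 (SE 0.35), to 3.65 to 9.16 FPKM, with no overlap. The part of these cells in the members' results was not tested.

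The diet and genotype comparisons share the WT HFD libraries, so a gene listed for both is bound to have opposite signs in almost every case and the signs are no result. For the 25 members listed for both, the groups that are not shared, TET2 KO on HFD and WT on chow, were compared with each other. This comparison was added after the data were seen, and genotype and diet differ together in it. It does not remove the selection: these genes were listed because WT HFD differed from both groups, nearly always in the same direction. Closeness of TET2 KO HFD to WT chow is thereby favoured by the listing and is no result about the members. The ranges of these groups overlapped for 22 of 25 (88%), beside 92.6% of the 2947 genes listed for both, and edgeR called 2 of 25 at an unadjusted p beside 4.28% of those genes. Has1 remained lower, at 0.607, 0.428 and 0.238 FPKM in TET2 KO HFD against 0.762, 0.946 and 0.897 FPKM in WT chow (-1.03, SE 0.36), and Extl3 higher, by 0.40 (SE 0.17). Has1 lost its call without WT chow replicate 2 or TET2 KO HFD replicate 2 (-1.03 to -0.96), and Extl3 without replicate 2 or 3 of either group (0.32 to 0.40). For B4galt4 the difference was 0.83 with a 95% interval from -0.03 to 1.70, for St6galnac2 0.56 (-0.14 to 1.26), for Galnt6 -0.31 (-0.70 to 0.08) and for Hs2st1 0.02 (-0.35 to 0.39), so of these 4 intervals all held 0. Over all 27 members with values in both groups 4 were called, the others being Sulf2 at -0.92 (SE 0.28) and Galnt3 at -0.89 (SE 0.33), beside 12.8% of 3528 genes, and none had an adjusted p under 0.05 (edgeR, lowest 0.293). Without WT chow replicate 3 the 4 calls became 10, without WT chow replicate 2 there was 1, and without TET2 KO HFD replicate 2 or 3 there were 2.

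**Figure D5:**
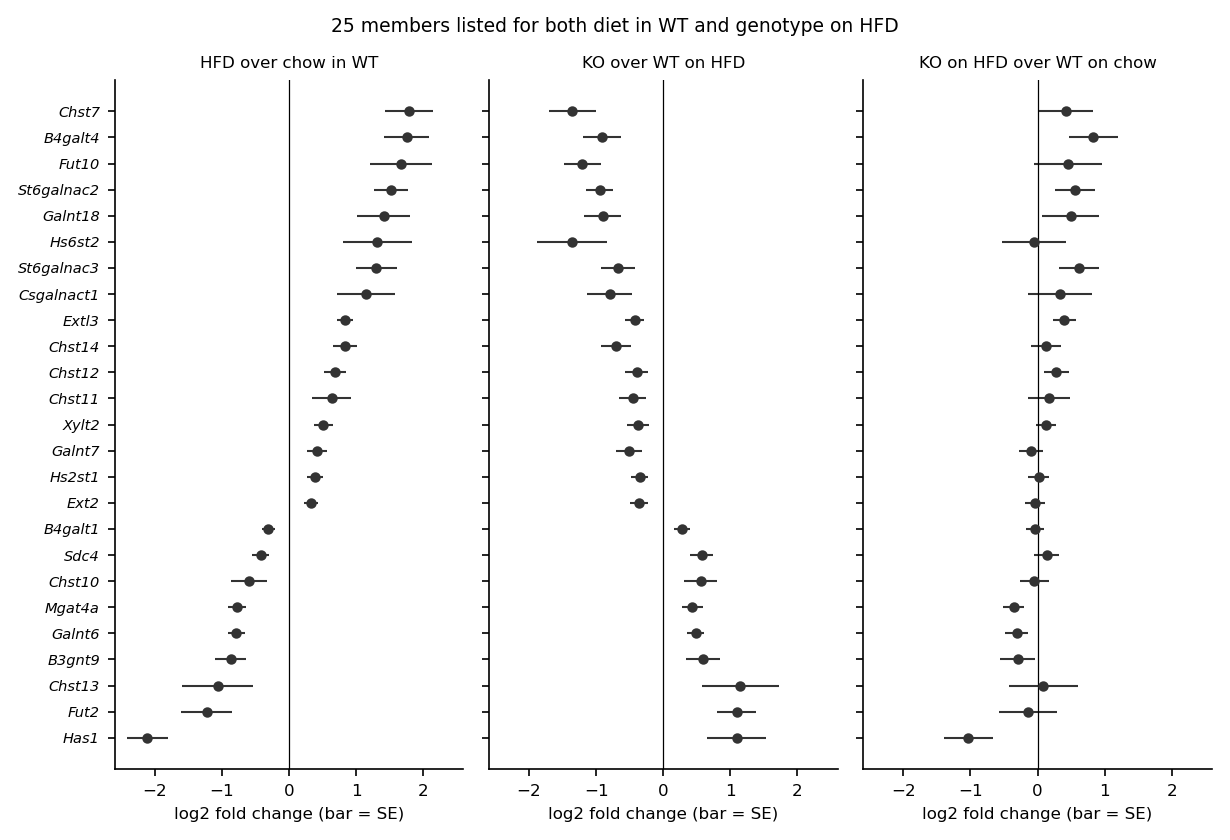
For the 25 members listed for both comparisons, the log2 fold changes (horizontal axes, bars for the SE) stand side by side for HFD over chow in WT (left), for the HFD genotype comparison (middle) and for TET2 KO HFD over WT chow (right). In the right panel most points lie close to 0, with Has1 at -1.03 the farthest below and B4galt4 at 0.83 the farthest above. Listing for both comparisons favours values close to 0 there.

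On chow only 5 members were listed for TET2 KO against WT, 3 higher (46.5% of listed genes were higher) and 2 lower. All 5 were called, beside 76.6% of the 1298 listed genes, of which 30.6% rose and 46% fell, with none at an adjusted p under 0.05 (edgeR, lowest 0.792). St6galnac2 had 3.33, 2.05 and 1.62 FPKM in TET2 KO chow and 0.914, 1.12 and 1.74 FPKM in WT chow. It rose by 0.90 (SE 0.34), but the groups overlapped and it was called in only 3 of 6 fits with 1 library missing. Without TET2 KO chow replicate 1 the value was 0.54 and was not called. St3gal5 rose from 4.20, 3.60 and 4.75 FPKM to 5.06, 6.25 and 6.03 FPKM (0.46, SE 0.17), and Galnt7 from 6.26, 6.52 and 5.59 FPKM to 8.33, 7.12 and 7.99 FPKM (0.35, SE 0.14). Mgat3, which adds the bisecting GlcNAc to N-glycans, fell from 0.856, 0.952 and 1.19 FPKM to 0.668, 0.310 and 0.602 FPKM (-0.92, SE 0.32). Of 6 fits with 1 library missing, St3gal5 was called in 2, Galnt7 in 1 and Mgat3 in 5. Galnt5 fell by 1.502 (SE 0.45) on 3 to 14 reads a library. Each of these calls was lost without at least 1 library or rests on few reads: leaving out 1 library left 2 to 4 of the 5, with 2 without WT chow replicate 1 or 2 and 3 without WT chow replicate 3 or TET2 KO chow replicate 1 or 3. In these libraries T cell markers were higher in TET2 KO (9 of 12 listed, 8 called, 252 to 361 FPKM against 153 to 244 FPKM). So were the NK cell markers Nkg7 and Prf1 and the monocyte and macrophage markers Ccr2 and Cx3cr1, all called. Ramp2, the one listed endothelial marker, was higher (1.18, SE 0.54) and not called. All listed markers of 3 other kinds were lower and called: 5 of 9 mesothelial markers, 4 lung epithelial ones (2363 to 3105 FPKM against 4300 to 5643 FPKM) and 4 fibroblast ones (3.05 to 3.86 FPKM against 4.33 to 9.18 FPKM). Their part in the result was not tested.

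HFD against chow in TET2 KO listed 11 members, of which 4 rose, 6 fell and Galnt3, at -0.66 (SE 0.32), was not called. These calls are 90.9% of the members beside 77% of 1628 listed genes, of which 29.3% rose and 47.7% fell, and 39.2% were higher whether called or not. None had an adjusted p under 0.05 (edgeR, lowest 0.706; edgeR and DESeq2 each called 10 at an unadjusted p), beside 0.0614% of listed genes. Groups were apart for 7 members (63.6%), beside 72.6% of listed genes. Hs6st1 rose from 13.9, 22.1 and 17.2 FPKM to 26.8, 27.2 and 26.8 FPKM (0.60, SE 0.19). Fut7 fell from 1.72, 1.65 and 1.20 FPKM to 0.689, 0.972 and 0.847 FPKM (-0.87, SE 0.26). Sulf2 fell by 0.81 (SE 0.28), from 26.3, 35.3 and 20.8 FPKM to 11.2, 20.9 and 15.0 FPKM, with a small overlap, and lost its call without TET2 KO HFD replicate 1 or 3 or TET2 KO chow replicate 2 (-0.78 to -0.59). Mgat4b, another N-glycan branching enzyme, fell by 0.60 (SE 0.22). Galnt7 fell by 0.45 (SE 0.18) and Galnt15 rose by 0.59 (SE 0.25), and each was called in only 1 of 6 fits with 1 library missing. The rest had few reads: Has2 had 3, 2 and 8 reads on chow and 0 in all HFD libraries, at least 4.29-fold lower over the group, Hs3st3a1 had 23, 26 and 29 reads against 0, 2 and 10, and Galnt14 and Chst4 had 3 to 29. Markers of other cells moved in both directions as well. Of 8 listed mesothelial markers 7 were higher on HFD and called, while Krt19 was lower (-0.85, SE 0.37) and not called. Fibroblast and smooth muscle markers were higher (5 of 5 listed, 3 called, 4.36 to 8.79 FPKM on HFD against 2.65 to 3.33 FPKM on chow). T cell markers were lower (4 of 4 listed and called, 102 to 141 FPKM against 158 to 225 FPKM), as were monocyte and macrophage markers (5 of 5 listed, 3 called, 2018 to 3430 FPKM against 4002 to 5608 FPKM). Their part in the result was not tested. Leaving out TET2 KO chow replicate 2 lowered the calls to 5, and leaving out TET2 KO HFD replicate 1 or 3 lowered them to 6.

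Only 4 members had values in all 12 libraries, which let the effect of genotype be compared between diets. Galnt7, whose gene lies at chr8:57523828-57653032 on the minus strand, had mean levels of 6.12 FPKM (SD 0.48) in WT chow, 7.81 (SD 0.63) in TET2 KO chow, 8.15 (SD 1.40) in WT HFD and 5.71 (SD 0.96) in TET2 KO HFD, n = 3 each. The order was therefore WT HFD, TET2 KO chow, WT chow and TET2 KO HFD, and the upper pair and the lower pair each overlapped within themselves. St6galnac2, at chr11:116675303-116694868 on the minus strand, had 1.26 (SD 0.43), 2.33 (SD 0.89), 3.58 (SD 0.44) and 1.85 FPKM (SD 0.42) in the same sequence of groups. In a fit over the 12 libraries the effect of TET2 KO on HFD minus that on chow was -0.86 (SE 0.27) for Galnt7 and -1.85 (SE 0.44) for St6galnac2, both called. Adjusted over 18463 genes, the smallest number recovered for a table, the edgeR adjusted p was 0.372 and 0.267, so neither passed 0.05. For Sulf2 it was -0.07 (SE 0.45) and for Galnt3 0.30 (SE 0.48), neither called. The 975 genes in this fit are there because they were listed in tables that together cover the 4 groups. Of them 56.4% were called, and 55.4% had an edgeR adjusted p under 0.05 when adjusted over the 975 alone, beside 2 of the 4 members. Galnt7 and St6galnac2 had been listed as higher in TET2 KO on chow and lower on HFD. The negative sign of their difference was therefore set by the listing.

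Genes of the same pathways outside the naming rule were counted from a list of 74. For HFD against chow in WT 22 were listed, 17 rose and 5 fell, and all were called. Podxl, the sialomucin podocalyxin, had 20.1, 20.8 and 38.5 FPKM on chow and 134, 99.3 and 65.1 FPKM on HFD (1.92, SE 0.35, edgeR adjusted p = 0.0374). Emcn, the endothelial mucin endomucin, and Agrn, the heparan sulfate proteoglycan agrin, rose by 1.75 (SE 0.23) and 1.26 (SE 0.26). Those that fell included Cspg4, a pericyte proteoglycan, by 0.97 (SE 0.32), Slc35d1, a carrier of nucleotide sugars, by 0.61 (SE 0.16), and Man2a2, a mannosidase of N-glycan trimming, by 0.42 (SE 0.11). For TET2 KO against WT on HFD 13 were listed, of which 9 fell and 2 rose. B3galnt1, the globoside synthase, fell by 1.34 (SE 0.34), Papss2, which makes the sulfate donor, by 0.94 (SE 0.32), and Tgfbr3, the part-time proteoglycan betaglycan, by 0.48 (SE 0.13), while B4galnt2 and Ogt rose by 0.72 (SE 0.26) and 0.34 (SE 0.13). For HFD against chow in TET2 KO 7 were listed, with 3 that rose and 2 that fell, among them Emcn, which rose by 0.98 (SE 0.32), and Vcan, the large chondroitin sulfate proteoglycan versican, which fell by 2.25 (SE 0.46). On chow 2 were listed, and Dcn, the fibroblast proteoglycan decorin, fell by 1.20 (SE 0.35).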

How the data were processed

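RNA-seq of CD31+ lung cells from 12 mice was analysed in 4 groups of 3. According to the study's methods the authors used HISAT2 (mm10) for alignment, featureCounts for counting and DESeq2 for testing. Versions, annotation release and strand setting are not given in the sources used here. The authors deposited read counts, a normalized signal (counts divided by a size factor per library and table) and FPKM. The authors' log2 fold changes were not used. The deposited p-values served only to test that every listed gene had p under 0.05 and to recover how many genes were adjusted over (18463, 23768, 18703 and 19511 in the order chow genotype, diet in WT, HFD genotype, diet in TET2 KO).

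Here edgeR 4.0.16 (R 4.3.3) quasi-likelihood tests were fitted to the counts of all listed genes of a table, with the 2 groups compared, no covariate and library sizes from the deposited size factors. SE is the log2 fold change divided by the root of F. P-values were adjusted by Benjamini-Hochberg over the recovered numbers in the 4 deposited comparisons, over the 975 genes fitted for genotype by diet and over the 3528 fitted for the added comparison. Because the 975 were selected for differences between these groups, the genotype by diet p-values were also adjusted over 18463 genes, with genes not fitted taken to have larger p-values. The genes that gave the spread had all passed the listing threshold. FPKM of a library is the same in every table and was compared across tables, and normalized counts only within one. Library totals of 36.7 to 56.8 M reads were recovered from counts and FPKM. On simulated data for HFD against chow in WT (6559 genes) the test recovered, at an adjusted p under 0.05, 38 of 100 genes changed 2-fold and 86 of 100 changed 4-fold, with 10 false calls among 6359. Promoter windows came from RefSeq on GRCm38.p6, and figures were drawn with matplotlib 3.10.9.

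Named genes were, in each comparison, up to 8 called members in each direction, ranked by size of change, that reached 50 normalized counts on average in the higher group and did not overlap, those with an adjusted p under 0.05, those in 3 or more tables, and every listed member of the small roles. Of the pathway list up to 3 in each direction were taken. Other members are named to complete the count of their role. The members and lists were chosen with earlier results of these data known. Alternatives were TMM scaling, library totals, a minimum mean of 10 normalized counts, DESeq2 1.42.0, a replicate block, adjusted p-values, a log2 fold change over 1, and fits without each library. Because the authors also listed genes by DESeq2, its calls among listed genes are not independent of the listing. The comparison of TET2 KO on HFD with WT on chow and its alternatives were chosen after seeing the data.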

Additional observations from a re-analysis of the deposited data

Results flagged for a closer look

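The effect of TET2 KO differed between diets, by an unadjusted p under 0.05 in the edgeR test of the difference itself over the 12 libraries, for 2 of the 4 members with values in every library. For Galnt7 the effect on HFD minus that on chow was -0.86 on the log2 scale (SE 0.27), and over fits that left out 1 library it stayed between -0.98 and -0.72 and was called in 12 of 12. For St6galnac2 it was -1.85 (SE 0.44), between -2.15 and -1.50 and also called in 12 of 12. The genes of the fit entered it by being listed for differences between these groups, and 56.4% of the 975 were called. Both members had been listed as higher in TET2 KO on chow and lower on HFD. The negative sign was therefore set by the listing, and the fits that left out 1 library reuse the same selected values. Adjusted over these 975 genes alone the edgeR adjusted p was 0.0196 and 0.0141, with 55.4% of them under 0.05, and adjusted over 18463 genes it was 0.372 and 0.267.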

How the results depend on the processing

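Members called numbered 5 for genotype on chow, 40 for diet in WT, 24 for genotype on HFD, 10 for diet in TET2 KO, 2 for genotype by diet and 4 for the added comparison of TET2 KO on HFD with WT on chow. Leaving out 1 library in turn gave 2 to 4, 29 to 38, 10 to 22, 5 to 8, 2 in every fit, and 1 to 10, the last without WT chow replicate 3. An adjusted p under 0.05 left 0, 9, 0, 0 and, in the added comparison, 0. For genotype by diet it left 2 when adjusted over the 975 genes fitted and 0 (edgeR; edgeR and DESeq2 each called 2 at an unadjusted p) when adjusted over 18463 genes, an alternative chosen after seeing the data. In the 4 deposited comparisons a log2 fold change over 1 left 1, 14, 7 and 4. Over the listed genes same-numbered libraries did not deviate together (correlations of -0.14 to 0.21). The labels do not say whether the numbers pair mice. These correlations cannot exclude it, because the genes were all selected for a difference between groups. The replicate block gave 2, 36, 25, 9, 2 and 4 calls. TMM scaling gave 4, 42, 25, 8, 2 and 6, and in the added comparison moved the split from 1 higher and 3 lower to 3 and 3. It shifted the median of all genes by -0.11 for TET2 KO against WT on HFD, 0.26 for HFD against chow in TET2 KO and -0.36 for genotype by diet. No member changed direction under TMM or library totals in the 4 deposited comparisons. In the genotype by diet fit Galnt3 turned from 0.30 to -0.032 under TMM and ranged from -0.070 to 0.58 without single libraries, and Sulf2 from -0.33 to 0.18. The cause was not tested. Has2 was measured on 0 to 8 reads a library and Galnt5 on 3 to 14.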
